A study of Arabidopsis thaliana with 6 samples.

Results

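The UDP-glycosyltransferases named UGT are a large family of plant enzymes that move a sugar from a UDP-sugar onto small acceptor molecules. The members here were taken from the array's probe sets that name exactly 1 gene whose symbol is UGT followed by a number. UGT74B1, UGT78D1 and UGT78D2 were left out by the same rule. This gave 44 genes of the 13356 genes that the array's tables name, in 11 family numbers between 71 and 88 and 20 lettered subfamilies. Each of the 44 genes was read by 1 probe set, and 0 of these carry the suffix that marks probes shared with other transcripts.

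Transcripts were measured in rosettes of Arabidopsis thaliana cat2-2, a catalase mutant made in Col-0. CAT2 is the main leaf catalase, which breaks down the hydrogen peroxide that photorespiration makes in peroxisomes, and every array here carries the mutation. The untreated group holds 3 biological replicates, sampled at 0 h and 21 days of age from plants grown in 16 h days on medium with 1% sucrose. The treated group holds 3 biological replicates, sampled at 24 h and 22 days of age, after parafilm had been put around the plates to restrict gas exchange and light had been kept on without a break at 100 µmol per square metre and second. The labels name this treatment photorespiratory conditions. Each replicate pooled at least 15 rosettes, and the plates also carried shr-6 cat2-2 plants, which are not analysed here. Gas exchange, day length, time and age all differ between the groups, so their parts cannot be told apart, and no cat2-2 plants kept untreated to 24 h are among these arrays.

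The sugar that a UGT adds makes its acceptor more soluble and often inactive, and the glycoside can be stored in the vacuole. Acceptors include the hormones abscisic acid, auxin, cytokinin and salicylic acid, phenylpropanoids and flavonols, sterols, and foreign compounds, for which glycosylation is the conjugation step of detoxification beside that of the glutathione S-transferases. Family numbers and letters follow similarity of protein sequence, and many members stand in tandem arrays of genes on a chromosome. The comparison shows how transcript levels of this family differed between the treated and the untreated mutant.

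Levels are the authors' deposited log2 values, 1 per probe set and array, made with RMA, which corrects background, equalises the arrays and summarises the probes of a set. A change is the treated mean minus the untreated mean on this log2 scale, with its standard error (SE) after ±, and a fold change is 2 to that power. Tests are from limma, with p-values adjusted by Benjamini-Hochberg over 22746 probe sets and a threshold of 0.05, and n = 3 arrays per group throughout, a number that limits the precision. "Rose" and "fell" are used of genes that passed. Levels of different genes are not compared, since probe sets differ in brightness.

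The arrays behaved alike within groups, with Pearson's r across probe sets of 0.996 to 0.997, against 0.955 to 0.966 between groups. The 5 mesophyll markers measured, RCA, PRK, SBPASE, LHCB4.1 and LHCB4.2, lay between 12.0 and 14.4 on every array, as bright probe sets. Of these LHCB4.2 fell (log2 -0.88 ± 0.08) and LHCB4.1 fell (log2 -0.24 ± 0.07), while RCA, PRK and SBPASE did not pass. Of 5 root markers 3 were measured, of which PYK10 fell (log2 -0.88 ± 0.10) and EXPA7 and EXPA18 did not pass. Of 4 guard cell lineage genes 3 were measured, of which SPCH fell (log2 -0.49 ± 0.09) and MUTE and FMA did not pass. Of 3 vascular markers only 1 was measured, SWEET11, which rose (log2 0.54 ± 0.08), and 0 of 3 flower markers were measured. The part of these shifts in the UGT values was not tested.

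After 24 h of treatment UGT transcripts rose more often than they fell. Of the 44 genes 18 rose, 5 fell and 21 did not pass. The 18 that rose make up 40.9% of the 44 genes, where 17.0% of all named genes rose, and the 5 that fell make up 11.4%, where 20.6% of all named genes fell. In either direction 52.3% of the UGT genes were called, against 37.7% of all named genes. At least 2-fold increases were found for 9 UGT genes (20.5%, against 3.45% of all named genes), and at least 4-fold increases for 5 (11.4%, against 0.741%). The groups did not overlap for 25 members (47.1% of all named genes), 20 of them higher (21.9%) and 5 lower (25.2%). None of the 44 fell at least 2-fold, where 3.20% of all named genes did. The median change of the 44 genes was log2 0.10, beside -0.01 for all named genes, so the typical member moved little and the increases sat in part of the 44. The 5 at least 4-fold risers are the genes that the choice of this family had named with earlier results in view. They count in every share of increases above, in the share called in either direction and among the groups that did not overlap. Their size and all of these shares are therefore a description. In whole rosettes, fewer cells of a type and less RNA per cell cannot be told apart.

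**Figure D1:**
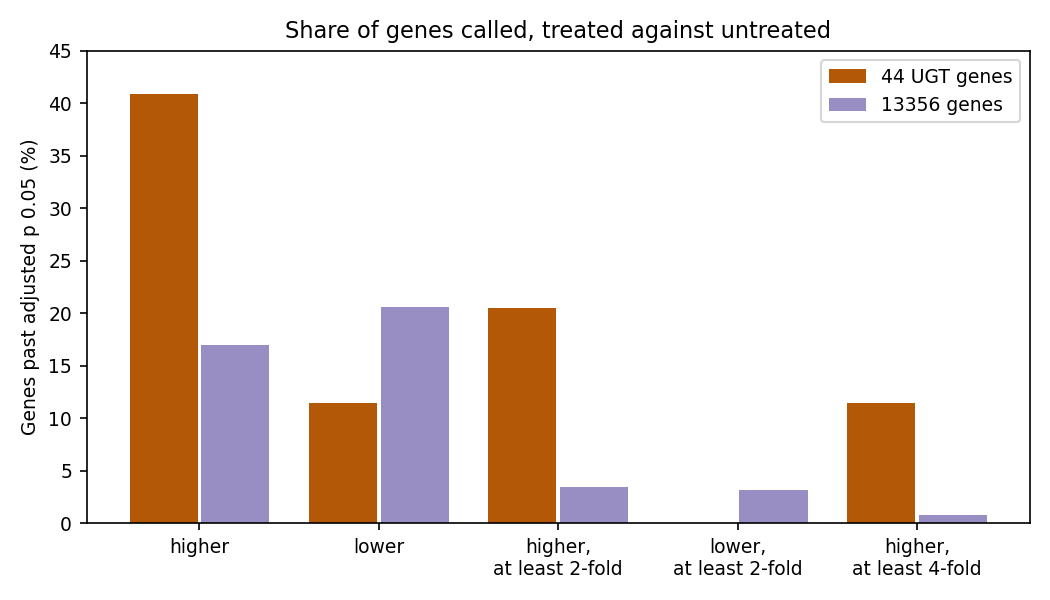
Bars give the percentage of genes with adjusted p under 0.05 (limma, 3 arrays per group) among the 44 UGT genes and among all 13356 named genes, by direction and by size of change. UGT genes stand above all genes in each class of increases (40.9% against 17.0%, 20.5% against 3.45%, 11.4% against 0.741%) and below them in both classes of decreases. The choice of the family had named the 5 genes of the 4-fold class with earlier results in view, and they count in each class of increases.

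A smaller share of members passed in the dimmest 40% of probe sets (22.2%) than in the upper 60% (73.1%). Whether brightness decided which members passed was not tested. In the dimmest 40% of probe sets lay 18 of the 44 UGT genes, of which 4 rose (22.2%) and 0 fell. Of all named genes that dim 12.9% were called, 4.73% higher and 8.16% lower. In the upper 60% lay 26 UGT genes, of which 14 rose and 5 fell. There 53.8% of the UGT genes rose, against 27.2% of all named genes as bright, and 19.2% fell, against 31.0%. Either way 73.1% of the UGT genes passed there, against 58.2%. Of the 14 risers there, UGT76E12 and UGT76B1 had untreated means at the 31.2nd and 35.1st percentiles. They lie in the upper 60% only through their treated levels, so the split partly follows the change itself. The 5 genes named beforehand are also among the 14 risers, so these shares are a description. How far the 14 dim genes that did not pass lie above background was not tested.

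The 2 largest increases, of UGT73B4 and UGT73C1, came from family 73. UGT73B4, whose enzyme conjugates transformation products of the explosive TNT, stood at 6.07, 5.47 and 6.10 in untreated and at 8.55, 8.51 and 8.88 in treated replicates 1 to 3. Its groups lay 2.41 apart at their nearest arrays, and it rose 6.81-fold (log2 2.77 ± 0.16; limma adjusted p = 1.35e-07). UGT73B5, which with UGT73B3 is needed for full resistance of Arabidopsis to Pseudomonas syringae, read 6.56, 5.96 and 6.73 untreated and 8.76, 8.64 and 8.96 treated. That is a 5.16-fold increase (log2 2.37 ± 0.17; limma adjusted p = 5.92e-07). UGT73B4 and UGT73B5 are next to each other on chromosome 2.

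UGT73B1, on chromosome 4, read 7.47, 6.75 and 7.12 untreated and 9.03, 9.06 and 8.83 treated, and rose 3.62-fold (log2 1.86 ± 0.15; limma adjusted p = 1.78e-06). All treated arrays lay above all untreated ones for each of the 3 measured UGT73B genes, a split that 21.9% of all named genes had. UGT73B2, which adjoins UGT73B1, and UGT73B3 share a probe set and so are no members. That probe set read 9.24, 8.72 and 9.19 untreated and 11.04, 11.19 and 11.33 treated, an increase of log2 2.13 ± 0.13 (limma adjusted p = 2.23e-07) that cannot be assigned to either gene. All 4 probe sets that name a gene of subfamily 73B therefore rose, where 17.0% of all named genes rose. UGT73B4 and UGT73B5 had been named beforehand with earlier results in view, so this count is a description.

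Subfamilies 73C and 73D were uneven. UGT73C1, whose enzyme glucosylates cytokinins in vitro and also conjugates TNT products, read 6.47, 5.42 and 6.13 untreated and 8.59, 8.56 and 8.86 treated. It rose 6.33-fold (log2 2.66 ± 0.21; limma adjusted p = 1.35e-06), with the largest SE of the 44. UGT73C2, the next gene on chromosome 2, read 4.01, 3.93 and 3.78 untreated and 4.09, 4.26 and 4.06 treated, a change of log2 0.23 ± 0.09 that did not pass (limma adjusted p = 0.0619). UGT73C7, known for glucosylating phenylpropanoids in immunity, changed by log2 0.19 ± 0.11 and UGT73D1 by log2 0.12 ± 0.08, and neither passed. With arrays anchored on the brighter bacterial poly(A) spikes these 3 did pass, at log2 0.38, 0.34 and 0.27. UGT73C2 also passed with all poly(A) spikes (log2 0.30), the hybridization controls (0.33) or equal array medians (0.26). It passed too with trended and robust moderation in limma (0.23) and without untreated replicate 1 (0.28), as did UGT73C7 without treated replicate 1 (0.29). Each of the 3 lay in the dimmest 40% of probe sets.

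**Figure D2:**
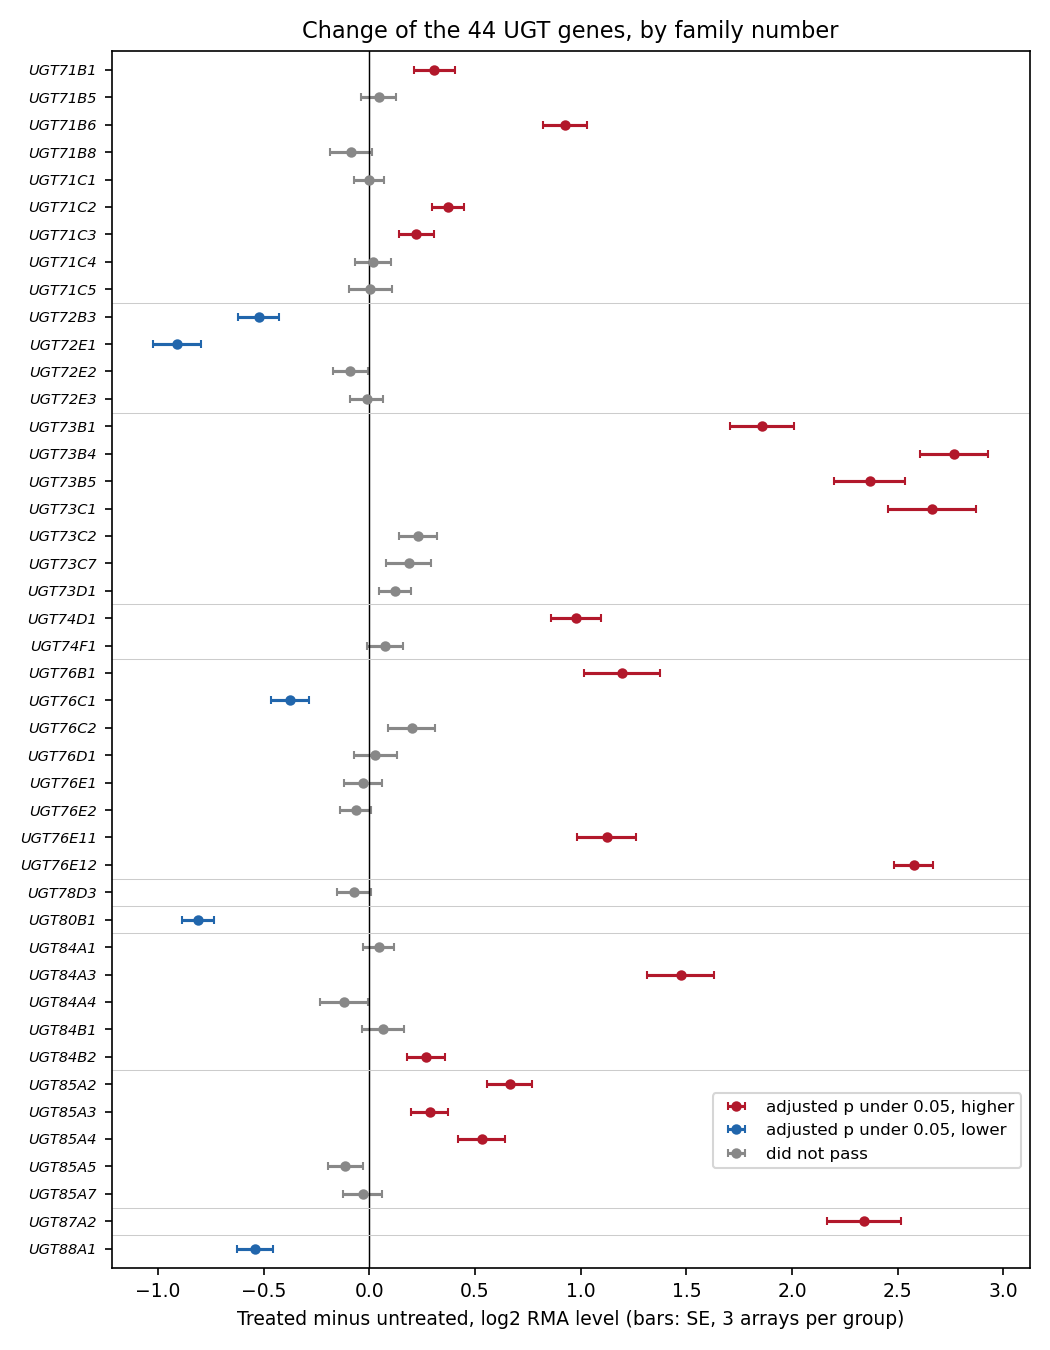
Points give the treated minus untreated difference in log2 RMA level of each of the 44 UGT genes, grouped by family number, and bars give its SE (3 arrays per group). Families 73, 76, 84 and 87 hold the 9 changes above log2 1, up to 2.77 in UGT73B4, while the lowest value is -0.91 in UGT72E1.

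UGT87A2, known for its part in flowering time and in drought and salt responses, is the only member of family 87 under the rule. Its levels were 9.09, 8.19 and 8.74 untreated and 10.92, 11.09 and 11.05 treated. It rose 5.07-fold (log2 2.34 ± 0.18; limma adjusted p = 1.01e-06), and the treated arrays kept within an SD of 0.09 while the untreated ones spread with an SD of 0.46. The next gene on chromosome 2, AT2G30150, rose less (log2 0.54; limma adjusted p = 0.00776).

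Family 76 held increases, a decrease and genes that did not pass. UGT76E12 read 4.67, 4.81 and 4.90 untreated and 7.23, 7.40 and 7.47 treated. It rose 5.96-fold (log2 2.58 ± 0.09), and with adjusted p = 6.05e-09 (limma) it had the smallest p of the 44 genes. Its untreated mean stood at the 31.2nd percentile of probe sets, and its distance from background was not tested, so its fold may be understated.

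UGT76E11, which glucosylates flavonoids, lies beyond the gene AT3G46666 from UGT76E12 on chromosome 3. It read 7.19, 6.56 and 7.06 untreated and 8.01, 8.00 and 8.17 treated, a 2.18-fold increase (log2 1.12 ± 0.14; limma adjusted p = 5.21e-05). The flanking genes on the outer sides, AT3G46650 (log2 -0.03) and AT3G46680 (log2 -0.07), did not pass. The other UGT76E genes measured are UGT76E1, which glucosylates a hydroxylated jasmonate, and UGT76E2, at log2 -0.03 and -0.06, and neither passed.

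UGT76B1, which conjugates salicylic acid, isoleucic acid and N-hydroxypipecolic acid and so tempers defence signalling, read 5.50, 4.77 and 4.87 untreated and 6.24, 5.99 and 6.49 treated. It rose 2.29-fold (log2 1.20 ± 0.18; limma adjusted p = 0.000212), with groups 0.49 apart, the narrowest gap among the 9 genes that rose at least 2-fold. The cytokinin N-glucosyltransferase gene UGT76C1 read 6.88, 6.94 and 6.88 untreated and 6.48, 6.70 and 6.40 treated, and fell by 0.37 ± 0.09 on the log2 scale (limma adjusted p = 0.00553). Its call was lost with arrays anchored on the brighter poly(A) spikes (log2 -0.22, adjusted p = 0.0649) or on the hybridization controls (log2 -0.27, adjusted p = 0.107). Its neighbour UGT76C2, of the same activity, changed by log2 0.20 ± 0.11 and did not pass, though it did with the brighter spikes (log2 0.35). UGT76D1, known for glycosylating dihydroxybenzoic acids made from salicylic acid, changed by log2 0.03 and did not pass.

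Family 84 makes glucose esters of carboxylic acids. UGT84A3, an enzyme of hydroxycinnamic acids, read 8.27, 7.54 and 8.20 untreated and 9.46, 9.48 and 9.50 treated, with a treated SD of 0.02. It rose 2.78-fold (log2 1.47 ± 0.16; limma adjusted p = 1.66e-05). The adjoining genes on chromosome 4, UGT84A1 (log2 0.04 ± 0.07) and UGT84A4 (log2 -0.12 ± 0.11), encode enzymes of the same acids and did not pass. UGT84B1, which forms the glucose ester of the auxin indole-3-acetic acid, changed by log2 0.06 ± 0.10 and did not pass, while its neighbour UGT84B2 rose 1.21-fold (log2 0.27 ± 0.09; limma adjusted p = 0.0311), at an untreated mean at the 5.8th percentile. The UGT84B2 call was lost without treated replicate 1 (log2 0.28), 2 (0.25) or 3 (0.28) or untreated replicate 1 (0.18).

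**Figure D3:**
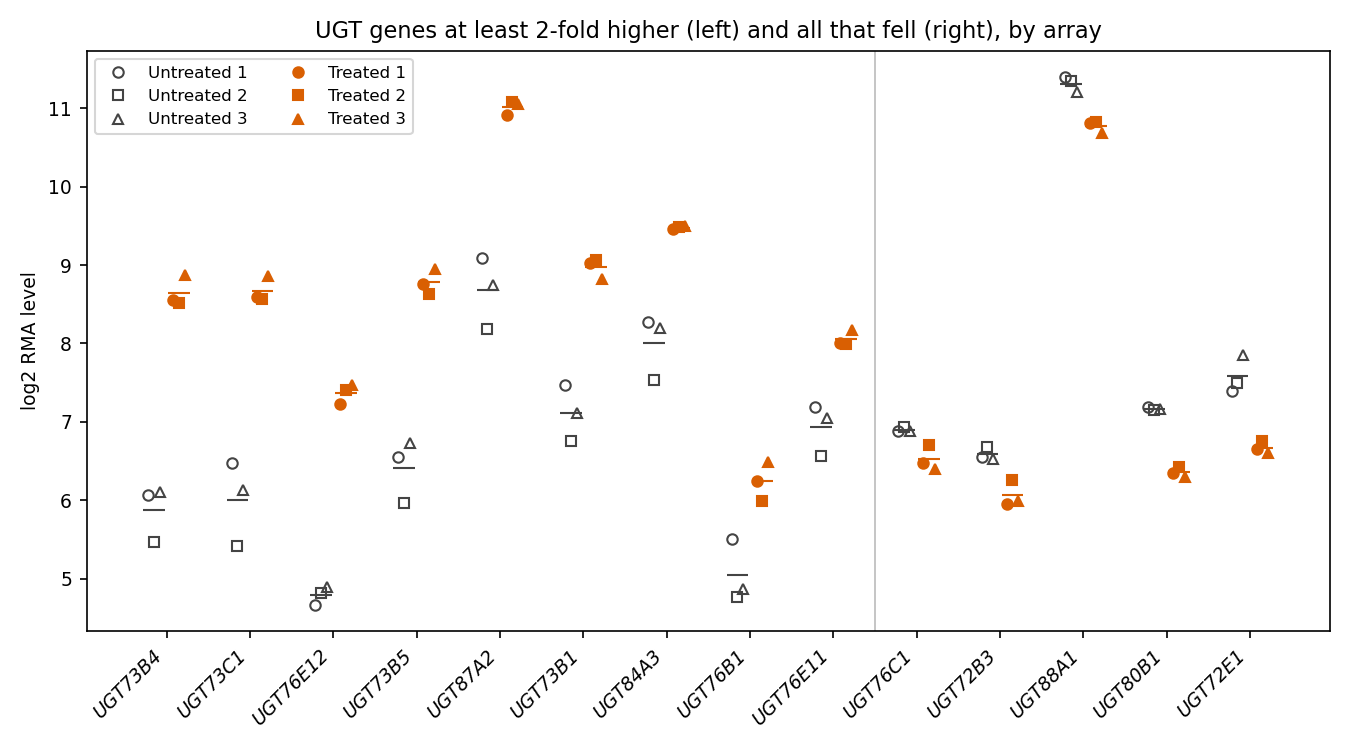
Symbols give the log2 RMA level on each of the 6 arrays, open for untreated and filled for treated replicates 1 to 3, with lines at group means, for the 9 UGT genes that rose at least 2-fold and the 5 that fell. The 14 genes were picked by their calls, so it follows largely from the choice that their treated and untreated arrays do not overlap. Of all named genes 47.1% had groups that did not overlap. Untreated replicate 2 (open square) is the lowest untreated array in 8 of the 9 genes on the left, and in 64.9% of all named genes that rose at least 2-fold.

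The other 9 increases were under 2-fold, from log2 0.22 to 0.98. The nearest to 2-fold was UGT74D1, which glucosylates auxin and its oxidised form, at 9.32, 8.81 and 8.97 untreated and 9.94, 10.09 and 10.01 treated (log2 0.98 ± 0.12; limma adjusted p = 4.21e-05). In the same family UGT74F1, a salicylic acid glucosyltransferase gene, changed by log2 0.07 ± 0.09 and did not pass. UGT71B6, known for glucosylating abscisic acid, led family 71 with 4.96, 4.60 and 4.87 untreated and 5.76, 5.83 and 5.61 treated (log2 0.93 ± 0.10; limma adjusted p = 2.33e-05).

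The remaining changes in family 71 were small. UGT71C2 rose by log2 0.37 ± 0.08, UGT71B1 by 0.31 ± 0.10 and UGT71C3, an enzyme that glucosylates methyl salicylate, by 0.22 ± 0.08. UGT71C5 and UGT71B8, both abscisic acid glucosyltransferase genes, did not pass (log2 0.00 and -0.09), nor did UGT71B5 (log2 0.04), UGT71C1 (log2 0.00) and UGT71C4 (log2 0.02). The call of UGT71C3, at an adjusted p of 0.0482 in limma, was lost without treated replicate 2 (log2 0.20) or 3 (0.19) or untreated replicate 1 (0.25), 2 (0.18) or 3 (0.24), and with the replicate number as a block (adjusted p = 0.0756). That of UGT71B1 was lost without treated replicate 3 (log2 0.27) or untreated replicate 2 (0.27) or 3 (0.24).

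In subfamily 85A, of 5 genes 3 rose and 0 fell, where 17.0% of all named genes rose and 20.6% fell. With 5 genes these counts are a description. UGT85A2 read 8.19, 7.95 and 8.22 untreated and 8.58, 8.88 and 8.89 treated, and rose 1.58-fold (log2 0.66 ± 0.11; limma adjusted p = 0.0004). UGT85A4 rose by log2 0.53 ± 0.11 and UGT85A3 by 0.29 ± 0.09, the latter call being lost without treated replicate 1 (log2 0.22) or untreated replicate 3 (0.24). UGT85A5 (log2 -0.11) and UGT85A7 (log2 -0.03) did not pass.

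Decreases lay in families 72, 80 and 88 besides UGT76C1. UGT72E1, of a subfamily known for glucosylating the lignin precursors and their aldehydes, read 7.40, 7.50 and 7.85 untreated and 6.66, 6.75 and 6.60 treated. It fell 1.88-fold (log2 -0.91 ± 0.11; limma adjusted p = 4.9e-05), while UGT72E2 (log2 -0.09 ± 0.08) and UGT72E3 (log2 -0.01 ± 0.08) did not pass. UGT72B3 read 6.56, 6.68 and 6.53 untreated and 5.95, 6.25 and 5.996 treated, and fell 1.44-fold (log2 -0.52 ± 0.10; limma adjusted p = 0.000894). In family 72, then, 0 of 4 members rose and 2 fell, where 17.0% of all named genes rose and 20.6% fell. With 4 genes these counts are a description. UGT72B1, listed as GT72B1 and so outside the rule, did not pass (log2 0.14 ± 0.08).

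UGT80B1 encodes a sterol glucosyltransferase and is also known as TRANSPARENT TESTA 15 from its seed coat phenotype. It read 7.20, 7.15 and 7.17 untreated and 6.35, 6.43 and 6.30 treated, with tight groups 0.72 apart, and fell 1.75-fold (log2 -0.81 ± 0.07; limma adjusted p = 4.72e-06). UGT88A1 read 11.40, 11.34 and 11.20 untreated and 10.81, 10.82 and 10.69 treated, and fell 1.46-fold (log2 -0.54 ± 0.08; limma adjusted p = 0.000261). UGT78D3, a flavonol arabinosyltransferase gene, read 4.28, 4.36 and 4.27 untreated and 4.26, 4.31 and 4.13 treated. It changed by log2 -0.07 ± 0.08 and did not pass.

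The changes of genes next to each other were also set against each other. Among protein-coding genes in RefSeq order, 14 pairs of measured members, made of 24 genes, adjoin. The within-array difference of each pair was compared between the groups, with the gene of the larger change written first, so that the sign follows from the order, and errors are SE from the spread of that difference within groups. In 3 pairs the changes differed at least 2-fold. In 10 of the 14 pairs this difference reached p = 0.10 (exact permutation test, two-sided), the smallest p that 3 against 3 arrays allow, and with adjustment over the 14 pairs these stood at 0.14. By this test no pair can pass 0.05 with these arrays. In those 10 pairs the treated arrays lay wholly on one side of the untreated ones, which is what the smallest p requires. Of all named genes taken singly 47.1% had such a split, and its share over other pairs of neighbouring genes was not tested.

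The widest gap was between UGT73C1 and UGT73C2, by log2 2.43 ± 0.34. UGT84A3 exceeded UGT84A4 by 1.60 ± 0.27 and UGT84A1 by 1.43 ± 0.23, so that in this run of 3 genes the middle one alone passed. In the run UGT85A7, UGT85A2, UGT85A5 and UGT85A3 on chromosome 1, UGT85A2 exceeded UGT85A7 by 0.70 ± 0.18 and UGT85A5 by 0.78 ± 0.10, and UGT85A3 exceeded UGT85A5 by 0.40 ± 0.14. UGT73B4 and UGT73B5 were the only one of the 14 pairs in which both genes rose as deposited, and UGT73B4 exceeded UGT73B5 by 0.40 ± 0.06. With the brighter spikes both genes also rose in the pairs UGT73C1 with UGT73C2 and UGT73C7 with UGT73D1. UGT73C1 with UGT73C2 did so in each other setting in which UGT73C2 passed. The 4 pairs above the smallest p were UGT84B2 with UGT84B1 (exact p = 0.30), UGT73C7 with UGT73D1 (0.60), UGT76E1 with UGT76E2 (0.80) and UGT71C4 with UGT71C5 (1.0).

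**Figure D4:**
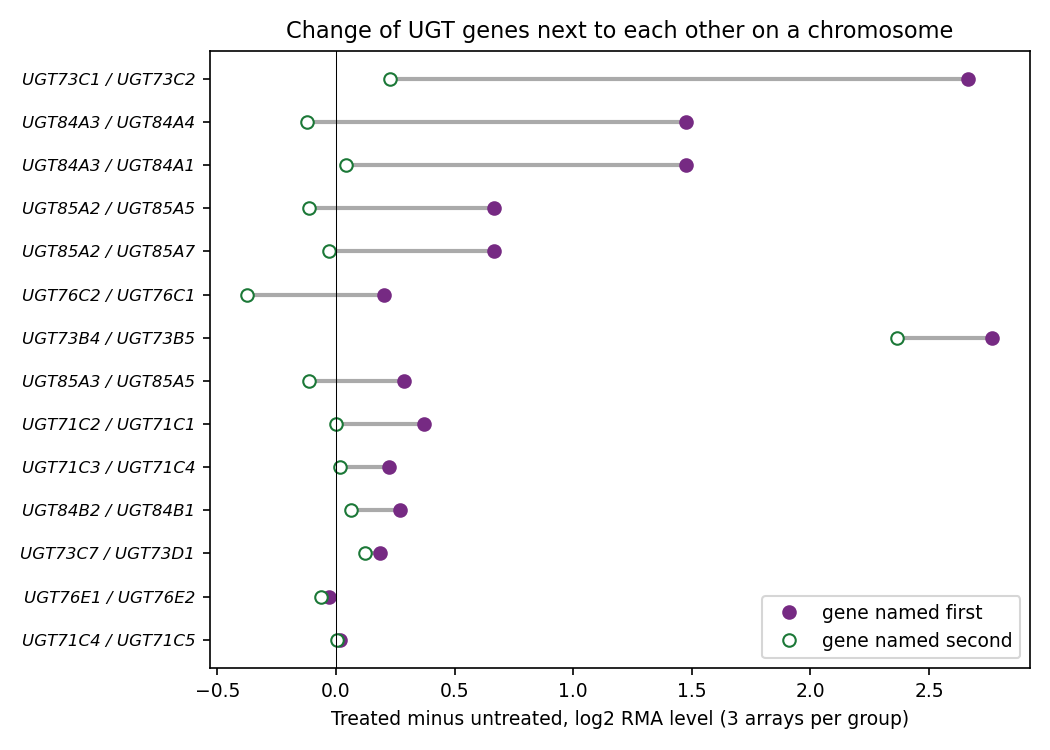
Each line joins the treated minus untreated log2 changes (3 arrays per group) of 2 UGT genes that adjoin on a chromosome, with the gene of the larger change as the filled point. UGT73B4 and UGT73B5 both lie above log2 2, while UGT73C1 and UGT84A3 lie far from their neighbours, which stay between -0.12 and 0.23.

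Untreated replicate 2 tended to read low for the genes that rose. It was the lowest untreated array for 13 of the 18 risers and for 8 of the 9 that rose at least 2-fold, UGT76E12 being the exception. Over all named genes it was lowest for 31.6%, but among all genes that rose for 51.0% and among those that rose at least 2-fold for 64.9%, so the UGT genes share this with other risers. Without that array the log2 changes were 2.56 for UGT73B4, 2.37 for UGT73C1, 2.14 for UGT73B5, 2.10 for UGT87A2, 1.68 for UGT73B1, 1.24 for UGT84A3, 1.06 for UGT76B1 and 0.94 for UGT76E11, and each still passed. The SD among untreated arrays exceeded that among treated ones in 8 of these 9 genes, and in 67.7% of all named genes that rose at least 2-fold.

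Some genes of the family fall outside the rule because they have another symbol or share a probe set, and further UGT genes may be among the probe sets that the tables do not list or list by locus tag alone. GT72B1, the symbol under which UGT72B1 is listed and an enzyme that conjugates chlorinated pollutants, changed by log2 0.14 ± 0.08 and did not pass. The sterol glucosyltransferase gene SGT, also known as UGT80A2, changed by log2 -0.19 ± 0.08 (limma adjusted p = 0.078). UF3GT, a flavonoid glycosyltransferase gene, changed by log2 -0.45 ± 0.18 and did not pass (limma adjusted p = 0.0615). AT5G54010, with the synonym UGT79B6, changed by log2 0.02 ± 0.08. The probe set shared by UGT71D1 and AT2G29710 fell by 0.69 ± 0.17 on the log2 scale (limma adjusted p = 0.00701), and that shared by UGT89B1 and AT1G73885 changed by 0.26 ± 0.11 (limma adjusted p = 0.0897).

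Genes that act beside UGTs were few in the tables, and the lists were matched by locus. Of 28 genes that supply UDP-sugars 1 was measured: USP, a UDP-sugar pyrophosphorylase gene, fell 1.28-fold (log2 -0.35 ± 0.08; limma adjusted p = 0.00312), a call that was lost with arrays anchored on the brighter spikes or on the hybridization controls. Of 12 beta-glucosidases and myrosinases, enzymes that remove glucose from glycosides, 5 were measured. Of these 5, 3 fell and 0 rose, where 20.6% of all named genes fell. The 3 that fell were PYK10, the main enzyme of root endoplasmic reticulum bodies (log2 -0.88), BGLU42 (log2 -0.62 ± 0.08) and BGLU33 (log2 -0.55 ± 0.08). BGLU45 and BGLU46, known for monolignol glucosides, did not pass (log2 0.10 and 0.17), at low untreated means of 4.06 and 3.91. The median of the 5 was log2 -0.55. None of 8 transporters of conjugates was measured.

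Of 18 genes of the xenobiotic response 3 were measured and all 3 rose, where 17.0% of all named genes rose. With 3 of 18 measured, this is no result about the response as a whole. The glutathione S-transferase gene GSTU25 rose by log2 3.32 ± 0.21, AT2G21640, a marker of oxidative stress known as UPOX, by 2.51 ± 0.09 and AER, a reductase of reactive alkenals, by 1.69 ± 0.13 (limma adjusted p = 1.18e-06). AER read 9.55, 8.97 and 9.43 untreated and 10.98, 11.09 and 10.96 treated, so untreated replicate 2 was its lowest array too. The list was drawn up with an earlier result for GSTU25 known.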

How the data were processed

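Rosette RNA of 6 samples was labelled with a 3' in vitro transcription kit and hybridised to ATH1 arrays, per the labels. The deposited values are log2 levels per probe set that the authors made with RMA; the tool is named in the submitters' processing notes without a version, and whether further arrays were normalized jointly is not stated there. There were 0 columns from other samples. Samples were grouped by title. Of 22810 probe sets, 64 controls were set apart and 22746 tested without a filter. Of these 13513 named 1 gene, 503 several, and 8730 were not listed; symbols were updated through RefSeq (TAIR10.1), which matched all 44 UGT genes and gave the gene order. A gene was read by its probe set of highest mean.

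The test was limma 3.58.1 in R 4.3.3 (lmFit, eBayes, no covariates, two-sided, Benjamini-Hochberg). Python 3.11.15 and pandas 2.3.3 joined tables and ran exact permutation tests; matplotlib 3.10.9 drew plots. The limma step was tested on simulated arrays with independent normal errors. Array medians lay between 6.22 and 6.27, and the median SE of a change was 0.09. The replicates are labelled biological, but the labels do not say which shared a plate, so p-values measure the spread between these samples.

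Members and lists were chosen with earlier results of these data known. The rule for named genes gives per-array values for UGT73B4, UGT73B5, UGT73C1, UGT76E12 and UGT87A2, for every member past the threshold with at least a 2-fold change, and for the largest change in each family; values shown for other members were added afterwards. The UPOX entry of the xenobiotic list was matched by locus, since the tables list it as AT2G21640.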

Additional observations from a re-analysis of the deposited data

How the results depend on the processing

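Over 686 values of the 44 UGT genes under the alternatives, 0 called changes reversed. Of the 23 called genes, 13 that rose and 4 that fell passed in every alternative in which they were tested, and 6 lost their call in at least 1; of the 21 others, 4 passed in at least 1. These figures leave aside a threshold of 0.01, at which 14 rose and 5 fell. Leaving out single arrays gave 15 to 17 risers and 5 decreases. Without moderation 13 rose and 5 fell, as UGT71B1 (adjusted p = 0.106), UGT71C3 (0.0818), UGT84B2 (0.102), UGT85A3 (0.0754) and UGT85A4 (0.0574) no longer passed.

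Scaling moved the counts past the threshold. Anchoring on the 13 brighter poly(A) spike sets raised every change by 0.15, on the 18 hybridization controls by 0.11 and on all 24 spike sets by 0.07. With the brighter spikes 4117 named genes rose (30.8%) and 1774 fell, and with the hybridization controls 1701 fell, against 2276 and 2758 as deposited; 22 UGT genes (50.0%) rose and 4 fell with the brighter spikes. Increases made up 69.9%, 59.4% and 55.5% of all calls in these 3 settings, against 45.2% as deposited, and 84.6%, 82.6% and 79.2% of UGT calls, against 78.3%. USP fell in neither of the first 2 settings (0 of 1), and 1 of 5 beta-glucosidases rose with the brighter spikes.

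Same-numbered replicates showed no shared deviation (correlations 0.07, -0.06 and 0.0008, beside -0.11 to 0.10 for other pairs). With 3 arrays per group and no plates in the labels, this cannot decide whether the numbers pair the samples. With the replicate block 17 UGT genes rose and 5 fell, UGT71C3 being lost. No UGT gene had a further probe set to try, and leaving out probe sets of shared probes changed no UGT call. Signal over background was not analysed here, and levels near background limit what can be said of the dim members.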
